A study of Arabidopsis thaliana with 16 samples.

Results

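The heat response of QK seedlings was described from 4 of the 16 arrays of a study of heat shock factors in Arabidopsis thaliana. QK is a knockout of HSFA1A, HSFA1B, HSFA1D and HSFA1E together. Its arrays were taken by title: 2 of seedlings heated at 37 °C for 1 h in a water bath, and 2 of seedlings kept at 22 °C. All seedlings were harvested whole at 7 days, after growth on 0.5-strength MS medium under 16 h of light, and QK carries a mix of the Col-0 and Ws backgrounds. The comparison plants were WT (Col-0) under the same conditions, also with 2 arrays each. Seedlings of an hsfa2 knockout in Col-0 and of A2QK, a QK line that expresses HSFA2 from the viral 35S promoter, add 8 arrays to the fit that estimates the spread between replicates. Nothing in the labels says that arrays 1 and 2 of a group were separate cultures. The p-values therefore rest on a spread between samples that may be no more than technical.

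In unstressed plant cells the HSFA1 proteins are transcription factors held inactive by chaperones. When heat unfolds proteins the chaperones are drawn away, and the freed HSFA1 proteins bind heat shock elements and switch on genes for small heat shock proteins, larger chaperones, their co-chaperones and further heat shock factors such as HSFA2. The endoplasmic reticulum has chaperones of its own, which are controlled mainly by a separate system, the unfolded protein response, with BZIP60 and BZIP28 among its regulators.

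Levels are log2 values from the RMA method, in which the signals of a gene's probes are background-corrected, normalized between arrays and summarised, and a change is the heated minus the 22 °C level. Errors of changes are standard errors (SE) of the limma fit over all 16 arrays. A probe set passed at a Benjamini-Hochberg adjusted p under 0.05 over 22746 probe sets, and the words raised, lowered, rose and fell are kept for those that passed. Array medians ran from 5.08 to 5.19 in QK and from 4.87 to 5.20 over the series. Replicates correlated across probe sets at 0.9587 to 0.9703 in the QK and WT groups, and at 0.9855 to 0.9945 in those of hsfa2 and A2QK. The fit takes its spread from all of them, so on this ground the SE of a QK change may be too small. It does not pair array numbers, although the array 2 minus array 1 differences of heated and 22 °C QK correlated at 0.62. On that ground the SE may be too large. None of the 21 heat shock factor genes had a probe set that names a single gene, so the loss of the HSFA1 genes was not checked here. LHCB4.1, a light-harvesting protein of green tissue, stood at 12.20 and 12.30 in heated QK and at 12.26 and 12.43 in QK at 22 °C. The root expansins EXPA7 and EXPA18 stood between 4.45 and 6.85 on the QK arrays, on either side of the array medians, and with no detection calls these levels do not show whether root RNA was present. Of the lists 3 of 20 green and 2 of 9 root markers were measured.

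Heat raised 573 probe sets in QK (2.52% of those tested) and lowered 988 (4.34%). All 1561 changed the same way within array number 1 and within number 2, which is largely set by passing a test on the same arrays. Rises were fewer but reached further. The raised probe sets had a median change of 1.20, with 150 raised at least 4-fold and 59 at least 8-fold. The lowered ones had a median of -1.10, with 56 lowered at least 4-fold and 6 at least 8-fold, and the largest fall was -3.84. With array medians set equal the split was 753 raised and 811 lowered, so that rises made up 48.1% instead of 36.7% of calls, and the median change of all probe sets was 0.097 instead of 0.027. In a fit of the QK arrays alone 37 probe sets were raised and 5 lowered. There were 336 raised without QK 22 °C array 1, 371 raised and 571 lowered without heated QK array 2, and 496 lowered without heated QK array 1.

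Small heat shock proteins bind unfolding proteins and keep them from clumping. Of 18 on the list 10 were measured, and 0 were raised or lowered in QK. For so few members this is near the shares of all probe sets (2.52% raised and 4.34% lowered). HSP17.6C, a cytosolic member, stood at 3.54 and 9.50 in heated QK, and at 3.33 and 2.88 in QK at 22 °C. Heated array 1 was thus close to the unheated arrays, and heated array 2 was far above them. The change was 0.21 within number 1 and 6.62 within number 2, and the fitted change of 3.42 ± 1.26 did not pass (adjusted p = 0.146).

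The same order of arrays was found for most of the list. HSP22, which is directed to the endoplasmic reticulum, stood at 3.63 and 8.10 in heated QK and at 3.60 and 3.74 in QK at 22 °C. HSP23.5, a mitochondrial member, stood at 2.45 and 6.37 in heated QK and at 2.08 and 2.37 in QK at 22 °C. HSP17.6B had 5.19 and 8.79 in heated QK and 4.55 and 4.79 in QK at 22 °C. In each of these 3 genes the heated array 1 lay above the unheated array of its number by no more than 0.64. HSP17.4III differed in that its heated array 1, at 4.41, was already above its 22 °C partner at 2.45, and heated array 2 reached 8.28 against 4.30. It had the lowest adjusted p of the list (change 2.97 ± 0.94, adjusted p = 0.0909). HSP26.5 and HSP15.7 stood at 2.89 and 3.56 on heated array 1 and at 6.47 and 6.57 on heated array 2, with 22 °C levels between 3.24 and 3.64. HSP18.5 stood at 5.57 and 7.00 in heated QK and at 5.73 and 5.91 in QK at 22 °C. HSP15.4 (change 0.71 ± 0.40) and HSP14.7 (0.34 ± 0.20) moved little within either number.

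Over the 10 members the median change was 1.94, with 0.29 within number 1 and 3.59 within number 2. Over all probe sets these medians were 0.027, -0.0033 and 0.042. A change of at least 2-fold upward was seen for 1 of 10 members within number 1, where 3.14% of all probe sets reached that size, and for 8 of 10 within number 2, where 2.48% did. A change of that size downward was seen for none of them within either number, against 4.73% of all probe sets within number 1 and 4.8% within number 2. These counts within a number have no test. Without heated QK array 1, which leaves a lone heated array whose spread is taken from the other groups, 7 of the 10 passed, with changes between 3.03 for HSP26.5 and 6.40 for HSP17.6C. Without heated QK array 2 none passed. With the array number as a block over all arrays HSP17.4III alone passed. In seedlings measured whole, fewer cells of a type and less RNA per cell cannot be told apart.

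**Figure D1:**
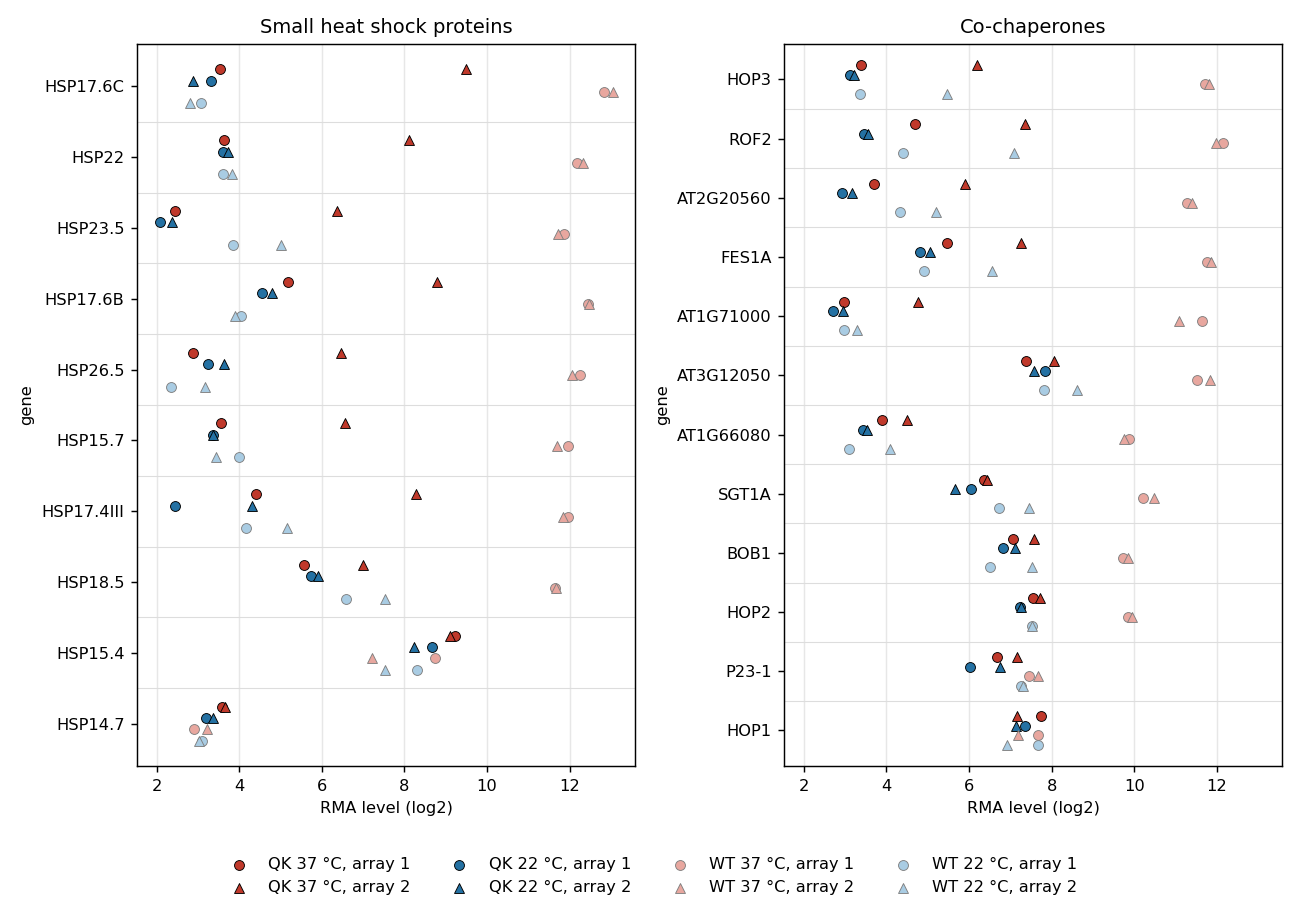
Log2 RMA levels (horizontal axes) of the 10 measured small heat shock proteins (left) and 12 measured co-chaperones (right), ordered from top by how much the QK change within number 2 exceeded that within number 1. Each point is 1 array, circles are array 1 and triangles array 2: the red triangle (heated QK, array 2) of HSP17.6C lies at 9.50, and its red circle (heated QK, array 1) at 3.54, close to the 22 °C arrays.

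Co-chaperones assist the HSP70 and HSP90 machines. Of 19 listed 12 were measured and 0 passed in QK, which for so few members is near the shares of all probe sets (2.52% raised and 4.34% lowered). Their median change was 0.62. Within number 1 the median was 0.35, and within number 2 it was 0.87. ROF2, an immunophilin that binds HSP90 and HSFA2, stood at 4.70 and 7.36 in heated QK and at 3.45 and 3.55 in QK at 22 °C. Both heated arrays were above both unheated ones, by 1.24 within number 1 and 3.81 within number 2 (change 2.53 ± 0.81, adjusted p = 0.0922). HOP3, which links HSP70 to HSP90, stood at 3.39 and 6.20 in heated QK and at 3.11 and 3.21 in QK at 22 °C. AT2G20560 had 3.70 and 5.89 in heated QK against 2.92 and 3.17 in QK at 22 °C, and FES1A, a nucleotide exchange factor of HSP70, had 5.48 and 7.26 against 4.82 and 5.05. For these 4 genes heated array 2 was the highest of the QK arrays. AT1G71000 followed the same order at lower levels, with 2.96 and 4.77 in heated QK and 2.70 and 2.96 in QK at 22 °C. Among the members that stayed closer together, HOP2 changed by 0.40 ± 0.15, SGT1A by 0.54 ± 0.22, BOB1 by 0.35 ± 0.28, P23-1 by 0.52 ± 0.22 and HOP1 by 0.20 ± 0.26. AT3G12050, at 7.39 and 8.06 in heated QK and at 7.83 and 7.56 in QK at 22 °C, changed by 0.03 ± 0.27. Without heated QK array 1, 5 members passed (ROF2, HOP3, AT2G20560, FES1A and AT1G71000), with changes of 1.94 to 3.86. Leaving out other arrays gave single calls: ROF2 and AT1G66080 passed without either WT 22 °C array (adjusted p = 0.027 and 0.0477), and P23-1 without QK 22 °C array 2 (adjusted p = 0.0347).

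Other chaperones of the cytosol and organelles gave no call in QK. The HSP70 genes HSC70-3 (0.71 ± 0.68) and HSC70-2 (0.53 ± 0.39) and the plastid chaperonin subunits CPN60B2 (0.62 ± 0.51) and Cpn60beta3 (0.48 ± 0.36) did not pass. They are 2 of 13 listed HSP70 and HSP110 genes and 2 of 10 chaperonins, and of 10 HSP90 and HSP100 genes none was measured. HSA32, needed for heat tolerance that lasts after acclimation, stood at 5.72 and 5.52 in heated QK and at 4.59 and 4.59 in QK at 22 °C. Its heated arrays were above the unheated ones within both numbers, by 1.13 and 0.93, and the rise of 1.03 ± 0.28 just passed (adjusted p = 0.0489). That call was lost under 14 of 23 alternatives, and without each QK array in turn (adjusted p = 0.115 to 0.213). ZAT10, a zinc finger repressor of stress genes, did not pass (-0.48 ± 0.62).

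Genes for protein folding in the endoplasmic reticulum rose in QK on both heated arrays. All 4 measured members of a list of 24 passed, against 2.52% of all probe sets raised, with a median change of 2.39. AT4G16660, listed here with the HSP70 relatives of this compartment, stood at 8.94 and 9.45 in heated QK and at 5.78 and 6.32 in QK at 22 °C. It rose by 3.14 ± 0.21 (adjusted p = 4.23e-06), with 3.15 within number 1 and 3.13 within number 2. The calreticulin CRT2, which holds new glycoproteins until they fold, stood at 11.25 and 11.90 in heated QK and at 8.42 and 9.55 in QK at 22 °C. It rose by 2.59 ± 0.35 (adjusted p = 0.00118).

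ERDJ3B, a DnaJ partner of the BiP chaperone, stood at 10.02 and 10.58 in heated QK and at 7.88 and 8.34 in QK at 22 °C, a rise of 2.19 ± 0.20 (adjusted p = 6.9e-05). CNX2, a membrane-bound relative of calreticulin, stood at 7.94 and 7.54 in heated QK and at 6.67 and 6.08 in QK at 22 °C, a rise of 1.36 ± 0.30 (adjusted p = 0.0182). In none of the 4 genes did heated and unheated arrays overlap. The call of CNX2 was lost without QK 22 °C array 2 (adjusted p = 0.108) and without heated QK array 1 (adjusted p = 0.124).

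Of the regulators of the unfolded protein response and the genes of endoplasmic reticulum degradation, 6 of 13 were measured and 1 passed. Over all probe sets 2.52% were raised and 4.34% lowered, and with so few members the count says little about the list. DER1, a derlin that helps to export misfolded proteins, stood at 7.64 and 7.54 in heated QK and at 6.30 and 6.99 in QK at 22 °C. It rose by 0.95 ± 0.20 (adjusted p = 0.0152), a call that was lost without QK 22 °C array 1, heated array 1 or heated array 2 (adjusted p = 0.0588 to 0.0933). A second probe set of DER1 changed by 0.072 and did not pass. BZIP60 stood at 7.49 and 7.89 in heated QK and at 7.17 and 7.92 in QK at 22 °C, and the 2 groups overlapped (0.15 ± 0.23). BZIP28 (0.060 ± 0.17), BZIP17 (-0.33 ± 0.17), OS9 (0.57 ± 0.17) and DER2.2 (-0.29 ± 0.42) did not pass, although OS9 did without QK 22 °C array 2 (adjusted p = 0.0467).

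**Figure D2:**
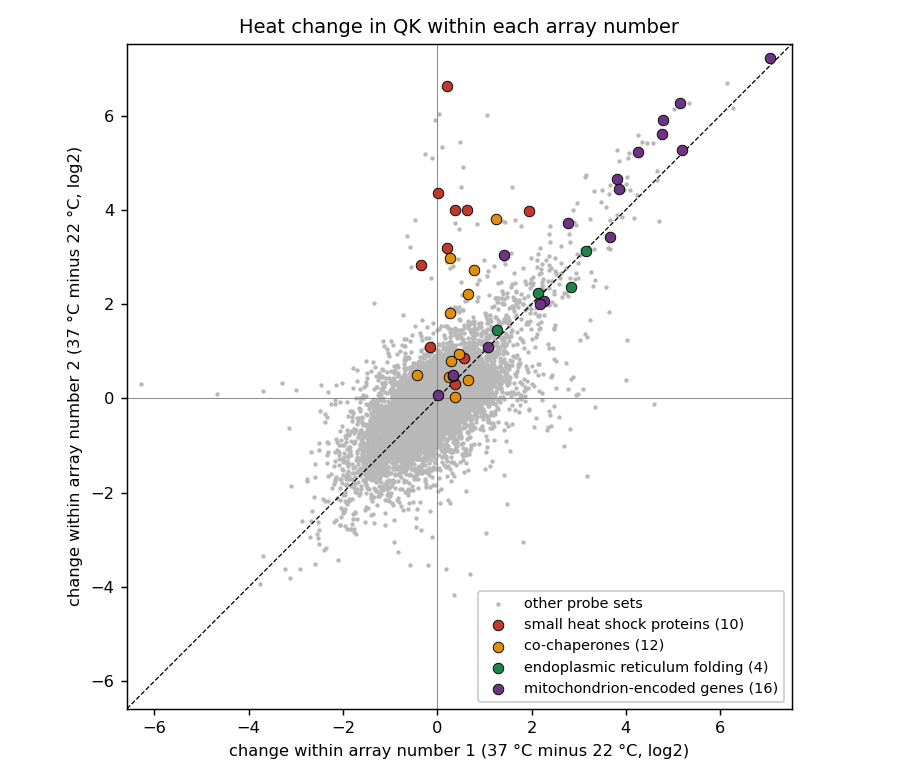
Heat change in QK within array number 1 (horizontal, log2) against that within number 2 (vertical, log2) for the 22746 tested probe sets, with the dashed line marking equal changes. Endoplasmic reticulum folding and most mitochondrion-encoded genes lie near the line, whereas 8 of 10 small heat shock proteins lie above it by more than 1 log2 unit, up to 6.62 within number 2 for HSP17.6C.

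The widest rises in QK were in probe sets assigned to mitochondrion-encoded genes. An inserted copy in chromosome 2 can share their probe matches, as described below. Of 33 listed genes 16 were measured and 14 rose, against 2.52% of all probe sets, with a median change of 3.84. nad6, a subunit of respiratory complex I, stood at 10.33 and 10.09 in heated QK and at 3.27 and 2.87 in QK at 22 °C, a rise of 7.14 ± 0.19 (adjusted p = 2.54e-09). nad9, of the same complex, stood at 8.34 and 8.45 in heated QK and at 3.14 and 3.18 in QK at 22 °C, a rise of 5.24 ± 0.14. The cytochrome oxidase subunit gene cox2 stood at 8.55 and 9.0 in heated QK and at 4.29 and 3.77 in QK at 22 °C, a rise of 4.75 ± 0.23. These arrays fell into separate ranges by temperature, with gaps of more than 4 log2 units.

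Other complex I subunits followed, with nad5 at 5.70 ± 0.47, nad1 at 5.34 ± 0.29, nad4L at 5.18 ± 0.22 and nad4 at 1.08 ± 0.20. The oxidase gene cox1 rose by 4.14 ± 0.21 and the maturase gene matR by 3.54 ± 0.18. Among genes for cytochrome c assembly ccmFC rose by 4.23 ± 0.27, ccmFN2 by 3.24 ± 0.23, ccmFN1 by 2.18 ± 0.32 and ccmB by 2.09 ± 0.23. mttB, a protein transport gene, rose by 2.23 ± 0.48, a call lost without QK 22 °C array 1, QK 22 °C array 2 or heated QK array 2 (adjusted p = 0.0602 to 0.126). nad7 (0.42 ± 0.25) and nad2 (0.049 ± 0.33), both near 3 on all 4 QK arrays, did not pass. The 7 probe sets of nad1 disagreed: 4 rose by 3.55 to 5.34, and 3 changed by 0.11 to 0.73 without passing.

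A stretch of chromosome 2 holds an inserted copy of much of the mitochondrial genome, so its genes and the mitochondrial ones can share probe matches and cannot be told apart by the arrays. Of 34 measured genes with locus numbers from AT2G07660 to AT2G07839, a group formed after their values were seen, 21 rose and 0 fell in QK. Over all probe sets 2.52% rose and 4.34% fell. The median change of the group was 1.85. AT2G07722 stood at 8.59 and 9.18 in heated QK and at 3.25 and 2.91 in QK at 22 °C. Of the 20 largest rises among named genes, 9 were mitochondrion-encoded, 9 lay in this stretch, and the other 2 were AT4G34630 and bZIP58. Plastid-encoded genes did not move in this way, with a median change of 0.023. Of 69 measured 1 was raised (psbB, 0.95 ± 0.25), near the 2.52% raised over all probe sets. The call of psbB was lost without QK 22 °C array 2, heated array 1, heated array 2 or either heated WT array (adjusted p = 0.0552 to 0.233). Of 4 nuclear genes for alternative respiration none passed, with NDB2 at 1.52 ± 0.43 (adjusted p = 0.0603). NDB2 passed without QK 22 °C array 2 (adjusted p = 0.0133) or either WT 22 °C array (adjusted p = 0.0464).

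**Figure D3:**
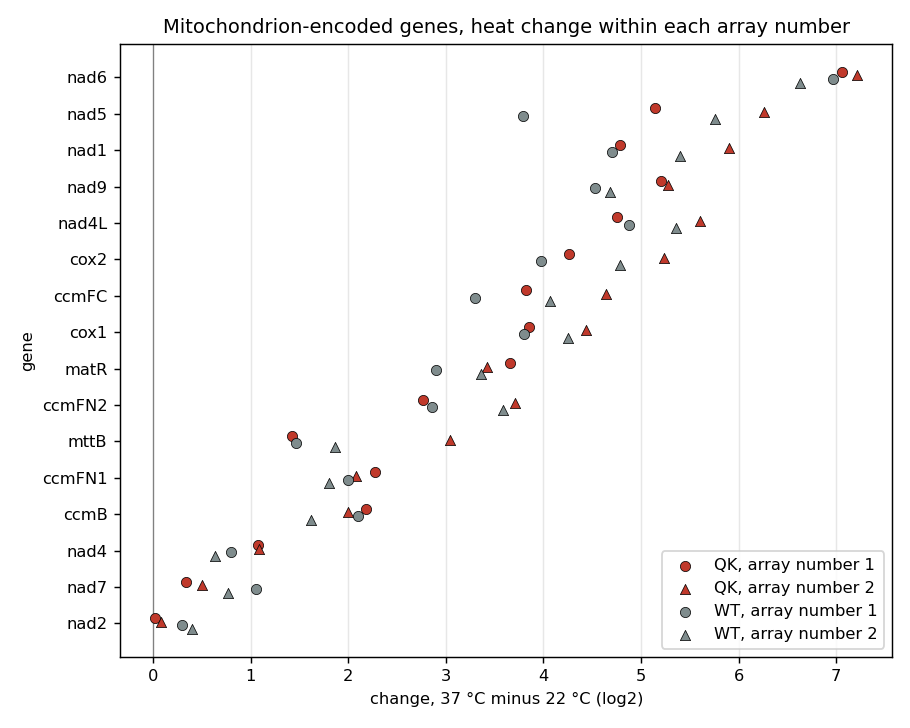
Heat change (log2, horizontal axis) of the 16 measured mitochondrion-encoded genes within array numbers 1 (circles) and 2 (triangles), in QK (red) and in WT (grey). The points of both genotypes run together from about 7 for nad6 to near 0 for nad2.

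Auxin promotes growth, and its Aux/IAA proteins repress transcription until the hormone triggers their breakdown. Of 93 listed genes 17 were measured, 4 rose and 1 fell, with a median of 0.16. Over all probe sets 2.52% were raised and 4.34% lowered. Other hormone lists had 5 measured members or fewer each. IAA29, an Aux/IAA gene, stood at 7.05 and 7.25 in heated QK and at 4.54 and 4.27 in QK at 22 °C, a rise of 2.75 ± 0.16 (adjusted p = 1.81e-06). GH3.3, whose enzyme joins auxin to amino acids, stood at 7.51 and 7.90 in heated QK and at 5.73 and 5.69 in QK at 22 °C, a rise of 2.0 ± 0.26 (adjusted p = 0.000972). WAG2, a kinase that acts on auxin transporters, stood at 6.59 and 6.49 in heated QK and at 5.12 and 4.86 in QK at 22 °C, a rise of 1.55 ± 0.20 (adjusted p = 0.000831). The heated arrays of all 3 genes lay above the unheated ones with no overlap. IAA30 rose by 1.45 ± 0.22. PID2, a relative of the auxin transport kinase PINOID, fell by -0.83 ± 0.22 (adjusted p = 0.0434), a call lost under 13 of 22 alternatives, among them the fits without QK 22 °C array 1 (adjusted p = 0.265), either heated QK array or either heated WT array, and with array medians set equal. The auxin synthesis genes YUC2, YUC4, YUC6 and YUC11 did not pass, with changes of 0.10 to 0.28.

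Of 65 genes for wall loosening and remodelling 27 were measured, 3 rose and 1 fell, against 2.52% raised and 4.34% lowered over all probe sets, and the median change was -0.12. XTH33, an enzyme that cuts and rejoins xyloglucan, stood at 8.44 and 9.23 in heated QK and at 6.23 and 6.49 in QK at 22 °C, a rise of 2.47 ± 0.28 (adjusted p = 0.000274). XTH16, of the same family, stood at 10.34 and 9.75 in heated QK and at 8.22 and 7.71 in QK at 22 °C, a rise of 2.08 ± 0.22 (adjusted p = 0.000195). Neither gene's heated arrays overlapped the unheated ones. The expansin-like gene EXLA2 rose by 1.30 ± 0.28, a call lost without QK 22 °C array 1 (adjusted p = 0.103) or heated array 2 (adjusted p = 0.121). EXPA7, an expansin of root hairs, stood at 4.45 and 4.50 in heated QK and at 5.55 and 5.98 in QK at 22 °C and fell by -1.29 ± 0.28, a call lost without QK 22 °C array 2, heated array 1 or heated array 2 (adjusted p = 0.0696 to 0.095). Its partner EXPA18 did not pass (-1.38 ± 0.38, adjusted p = 0.0509), but did without QK 22 °C array 1 (adjusted p = 0.0167) or heated array 1 (adjusted p = 0.0449). Of 7 genes for wall synthesis CSLC04 fell by -1.23 ± 0.26, and the call was lost without QK 22 °C array 2 or heated array 2 (adjusted p = 0.0921 and 0.0928).

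**Figure D4:**
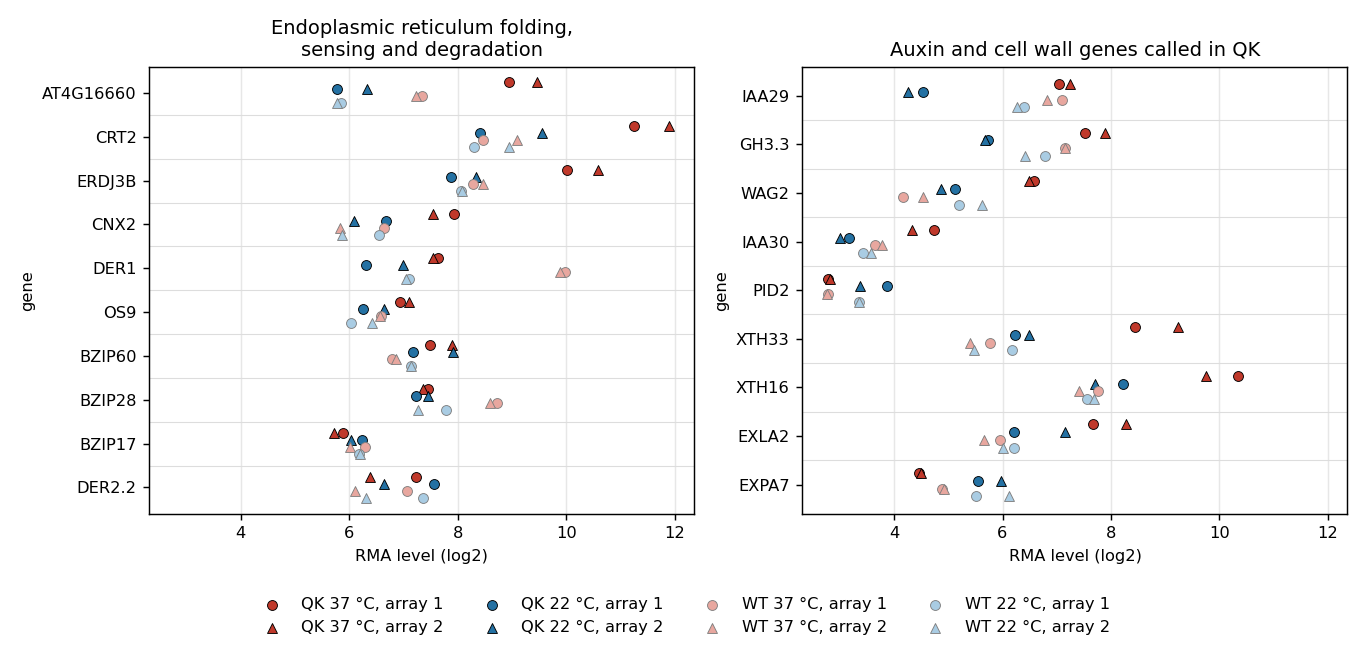
Log2 RMA levels (horizontal axes) on each array of the measured endoplasmic reticulum genes (left) and of the auxin and cell wall genes that passed in QK (right), with circles for array 1 and triangles for array 2. Both heated QK arrays (red) of CRT2, at 11.25 and 11.90, lie to the right of the QK 22 °C arrays (dark blue) and of the WT arrays (pale).

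Of 8 measured subtilases, which are secreted proteases, 3 fell, against 4.34% of all probe sets, and the median of the 8 was -0.018. SBT4.12 stood at 5.67 and 5.04 in heated QK and at 7.78 and 8.46 in QK at 22 °C, a fall of -2.76 ± 0.24 (adjusted p = 4.75e-05). SBT1.3 fell by -1.54 ± 0.18, and ARA12, a subtilase of seed coat mucilage, by -1.55 ± 0.29. Without QK 22 °C array 2 or heated array 1 ARA12 lost its call (adjusted p = 0.0519 and 0.0651). Of 20 measured beta-glucosidases 3 fell, with a median of 0.018. BGLU33 stood at 3.28 and 3.57 in heated QK and at 6.16 and 6.18 in QK at 22 °C, a fall of -2.74 ± 0.20. BGLU45 and BGLU46, which act on precursors of lignin, changed by -0.98 ± 0.17 and -0.84 ± 0.19, and lost their calls without heated array 1 (adjusted p = 0.0511 and 0.133), BGLU46 also without QK 22 °C array 1 (adjusted p = 0.146) or heated array 2 (adjusted p = 0.0719). The peroxidase gene PRXR1 fell by -1.19 ± 0.21.

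The largest fall among named genes was that of AT5G54370, at 3.84 and 3.84 in heated QK and at 7.60 and 7.78 in QK at 22 °C. Its change was -3.84 ± 0.37 (adjusted p = 9.22e-05). AT4G13580 stood at 4.76 and 3.87 in heated QK and at 7.66 and 7.50 in QK at 22 °C and fell by -3.26 ± 0.44. AT1G64380 fell by -3.46 ± 0.65, a call lost without heated QK array 1 (-2.72, adjusted p = 0.0691). Together with SBT4.12 and BGLU33, the 10 largest falls held AT5G10130 (-2.82 ± 0.35), AT1G54540 (-2.80 ± 0.39), AT4G32460 (-2.76 ± 0.30), AT4G17280 (-2.66 ± 0.28) and AT1G50060 (-2.58 ± 0.28). The heated and unheated arrays of these last 5 genes did not overlap. Of the 20 largest falls, 3 more lost the call without a QK array: AT1G01300 without heated array 2 (adjusted p = 0.0534), and AT2G47550 and sks15 without QK 22 °C array 2 (adjusted p = 0.055 and 0.0709) or heated array 1 (adjusted p = 0.0509 and 0.121).

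WRKY53, a transcription factor of leaf ageing and defence, stood at 7.29 and 6.92 in heated QK and at 3.66 and 5.08 in QK at 22 °C, a rise of 2.74 ± 0.65 (adjusted p = 0.0282) that was the single call among 6 WRKY genes. It was lost without QK 22 °C array 1, heated array 1 or heated array 2 (adjusted p = 0.0819 to 0.182). SAG101, a partner of the immune regulator EDS1, fell by -1.08 ± 0.23 and lost its call without the same 3 arrays (adjusted p = 0.07 to 0.103). Of 13 glutathione transferases GSTU27 rose by 0.71 ± 0.19, and of 23 cytochrome P450 genes CYP71B5, CYP71B6 and CYP71B34 fell by -0.84, -0.86 and -0.78, against the 4.34% of all probe sets lowered. These 4 calls were each lost without 3 or more of the 4 QK arrays. No member passed among 4 abscisic acid, drought and cold genes, 5 jasmonate genes, 5 bHLH genes, 7 nuclear photosystem and light-harvesting genes, 3 cell cycle genes and 4 reference genes. In lists this small, no call is near the shares of all probe sets (2.52% raised and 4.34% lowered).

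The heated QK arrays were then set against each other within numbers. The change was at least 4-fold higher within number 2 than within number 1 for 66 probe sets (0.29%) and at least 4-fold lower for 65 (0.286%), a description with no test. Of the 15 named genes with the widest excess within number 2, picked after their values were seen, 6 were small heat shock proteins and 2, HOP3 and ROF2, were co-chaperones. The second widest excess was of another kind: AT1G73490 stood at 3.22 and 8.08 in heated QK and at 7.89 and 7.98 in QK at 22 °C, so that heated array 1 was the array that lay apart. In the other direction ZW9 stood at 7.62 and 7.65 in heated QK and at 4.45 and 9.29 in QK at 22 °C, and JAL33 at 9.19 and 10.07 against 4.59 and 10.18. In these 2 genes the unheated arrays lay apart.

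Set against WT, the signed heat change was lower in QK for 241 probe sets (1.06%) and higher in QK for 102 (0.448%), by limma's contrast between the 2 heat changes, which share no array. In WT 753 probe sets were raised (3.31%) and 1212 lowered (5.33%). The 500 that rose at least 2-fold in WT had a median change of 0.40 in QK (0.31 within number 1 and 0.46 within number 2) and 2.14 in WT. In QK 120 of them were raised, which is 24.0% of the 500 and 20.9% of the probe sets raised in QK. The 664 that fell at least 2-fold in WT had a median of -1.11 in QK and -1.31 in WT. Of these 407 were lowered in QK, which is 61.3% of the 664 and 41.2% of the probe sets lowered in QK. Since these sets were picked on their WT change, a lower median in QK is in part set by the choice. QK and WT differ in background as well as in the HSFA1 genes, and the 2 cannot be told apart here.

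Of the 241 probe sets with a lower change in QK, 233 were raised in WT, and in QK 9 were raised, 22 lowered and 210 not called. They took in 5 of 10 small heat shock proteins and 9 of 12 co-chaperones. HSP18.5 stood at 5.57 and 7.00 in heated QK and averaged 11.66 in heated WT, with a difference between the responses of -4.13 ± 0.54 (adjusted p = 0.00172). AT3G12050 (-3.42 ± 0.38) and BOB1 (-2.42 ± 0.39) responded less as well. HSP17.6C (-6.57 ± 1.78, adjusted p = 0.147) and HSP23.5 (-5.18 ± 1.24, adjusted p = 0.0828) did not pass. Nor did CPN60B2 (-2.66 ± 0.72, adjusted p = 0.144). DER1 rose in both genotypes and by less in QK (-1.91 ± 0.28, adjusted p = 0.00393). AT5G07330, with a difference of -6.20 ± 0.86, had high levels in QK at both temperatures: 7.33 and 8.83 in heated QK and 6.67 and 8.75 in QK at 22 °C, with 9.82 and 9.76 in heated WT and 2.68 and 3.75 in WT at 22 °C.

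Of the 102 probe sets with a higher change in QK, 83 were raised, 0 lowered and 19 not called in QK, while 10 were raised and 26 lowered in WT. Of the endoplasmic reticulum folding genes 3 of 4 responded more in QK than in WT. AT4G16660 also rose in WT, by 1.47, and exceeded it in QK by 1.67 ± 0.29 (adjusted p = 0.0125). That call was lost without heated WT array 2 (adjusted p = 0.0552). CRT2 exceeded WT by 2.43 ± 0.50 (adjusted p = 0.0354), a call lost under 13 of 23 alternatives, among them the fits without QK 22 °C array 1 (1.86, adjusted p = 0.0843), heated QK array 2 (2.10, adjusted p = 0.139), WT 22 °C array 2 (2.11, adjusted p = 0.118) and heated WT array 1 (2.11, adjusted p = 0.149). ERDJ3B (1.89 ± 0.29, adjusted p = 0.0049) kept its call without each array in turn, but lost it in the fit of the WT and QK arrays alone (adjusted p = 0.158).

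XTH16 exceeded WT by 2.12 ± 0.31 (adjusted p = 0.00385). It stood at 7.75 and 7.42 in heated WT and at 7.55 and 7.69 in WT at 22 °C, below both heated QK arrays. WAG2 stood at 4.16 and 4.54 in heated WT and at 5.20 and 5.62 in WT at 22 °C, so that it fell in WT (-1.06, adjusted p = 0.00661) and rose in QK. IAA29 (2.12 ± 0.23, adjusted p = 0.000491) stood at 7.09 and 6.82 in heated WT and at 6.40 and 6.26 in WT at 22 °C, so that heated levels of the genotypes were close together and the QK 22 °C arrays lay below the WT ones. GH3.3 (1.45 ± 0.37, adjusted p = 0.12), IAA30 (1.23 ± 0.32, adjusted p = 0.117), EXLA2 (1.61 ± 0.39, adjusted p = 0.0898) and WRKY53 (3.47 ± 0.92, adjusted p = 0.138) did not pass for the difference. None of the 16 mitochondrion-encoded genes passed either by the probe set that stands for each, with a median difference of 0.31. Another probe set of nad1 changed by 0.11 in QK and by 3.26 in WT. In the AT2G07660 to AT2G07839 group 2 of 34 genes differed, where over all probe sets 0.448% were higher and 1.06% lower in QK.

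Markers of seed tissue stood higher in QK than in WT at both temperatures, a description with no test. LEA18, an embryo protein, stood at 9.50 and 10.13 in heated QK and at 7.43 and 9.55 in QK at 22 °C, against 2.66 and 4.93 in heated WT and 2.87 and 4.68 in WT at 22 °C. The seed storage protein gene PAP85 stood between 5.26 and 6.40 in QK and between 2.87 and 3.25 in WT, LEA4-5 between 6.45 and 9.26 in QK and 3.44 and 5.65 in WT, and the oleosin gene OLEO3 between 4.00 and 5.25 in QK and 3.16 and 3.37 in WT. The QK and WT ranges of these 4 markers, all that were measured of 19, did not overlap, and over all probe sets 4.46% had all 4 QK arrays above all 4 WT arrays. With heat none of them passed in QK. The part of this difference in the QK against WT results was not tested.

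**Figure D5:**
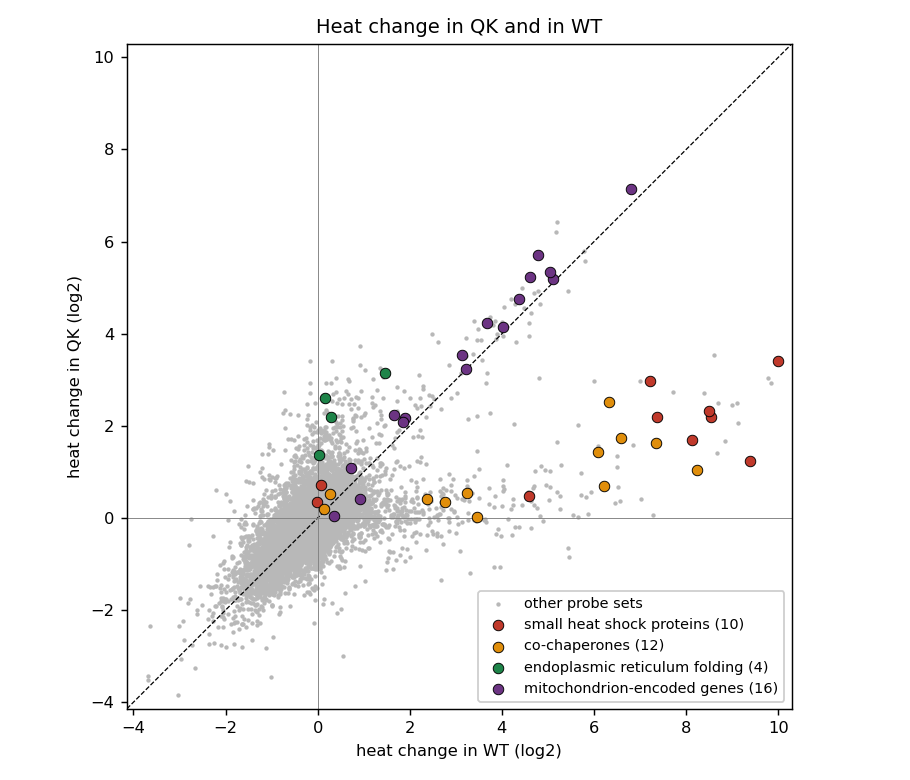
Heat change in WT (horizontal, log2) against that in QK (vertical, log2) for the 22746 tested probe sets, with the dashed line marking equal changes. Mitochondrion-encoded genes lie along the line, endoplasmic reticulum folding genes lie above it, and small heat shock proteins such as HSP17.6C (3.42 in QK and 9.99 in WT) lie far below it.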

How the data were processed

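RNA of whole seedlings was measured on Affymetrix ATH1 arrays, 16 in all and 2 in each of 8 groups. The deposited log2 levels were made by the authors with RMA, as the submitters' processing notes state. Which software version and probe set definition they used is not given in the sources used here. Of the probe sets, 64 control probe sets were left out and 22746 were tested. The platform table named a single gene for 13513 and several genes for 503, and 8730 were not listed and stay unnamed. Where a gene had several probe sets, the one with the highest mean level stands for it. RefSeq names (TAIR10.1) were found by identifier for 13436 of the single-gene probe sets and by mitochondrial gene symbol for another 23. Changes were fitted with limma 3.58.1 in R 4.3.3 as 8 group means with lmFit and eBayes, with 8 residual and 3.37 prior degrees of freedom, and p-values are two-sided and Benjamini-Hochberg adjusted over all tested probe sets. The number of arrays limits the precision, and array levels give no order between probe sets. Named genes were the 20 largest rises and 20 largest falls among those that passed, the 10 largest differences from WT in each direction, members of the lists, and genes picked after their values were seen, which are marked as such. The members and lists were chosen with earlier results of these data known. Alternatives were other normalizations, a filter on dim probe sets, a trended and robust prior, fits of fewer arrays, the array number as a block, and leaving out each array in turn.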

Additional observations from a re-analysis of the deposited data

Results flagged for a closer look

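The differences between the QK and WT heat changes that passed limma's contrast of the 2 changes, adjusted over all probe sets, are given below as the QK change minus the WT change on the log2 scale. In the small heat shock proteins QK responded less, with differences of -8.15 for HSP26.5, -6.42 for HSP15.7, -6.34 for HSP22, -6.17 for HSP17.6B and -4.13 for HSP18.5. In the co-chaperones the differences were -7.20 for AT1G71000, -5.71 for HOP3, -5.52 for AT1G66080, -4.83 for AT2G20560, -4.64 for FES1A, -3.42 for AT3G12050, -2.71 for SGT1A, -2.42 for BOB1 and -1.97 for HOP2. HSA32 (-3.89), DER1 (-1.91), AT5G07330 (-6.20), AT1G21550 (-6.13) and AT1G10260 (-5.79) also responded less in QK.

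The change was higher in QK than in WT for the endoplasmic reticulum genes CRT2 (2.43), ERDJ3B (1.89) and AT4G16660 (1.67), for the wall genes XTH33 (2.71) and XTH16 (2.12), and for the auxin genes WAG2 (2.61) and IAA29 (2.12). The other positive differences were those of AT5G44060 (3.03), AT4G37240 (2.86), AT4G34630 (2.81), AT4G35940 (2.68), AT1G77640 (2.37), AT1G69760 (2.28), AT3G16330 (2.18) and AT2G07719 (1.52). AT1G69760 was not called in QK (0.37) and fell in WT (-1.91), so that its positive difference is a smaller change in QK.

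Several of these calls were close to the threshold and were lost when 1 array was left out. HSP22 lost its call under 17 of 23 alternatives, among them the fits without each hsfa2 or A2QK array, which enter only the estimate of spread, and without each QK or WT array except the heated QK ones. In the QK and WT fits that lost it the difference was -6.46 to -6.23 (adjusted p = 0.0863 to 0.124). HOP3 lost its call without WT 22 °C array 1, QK 22 °C array 1 or either heated WT array (-5.76 to -4.66, adjusted p = 0.0506 to 0.0625), and HSP17.6B without either heated WT array (-6.19 and -6.16, adjusted p = 0.0561 and 0.0562). AT4G34630 lost it without QK 22 °C array 1, heated QK array 2 or heated WT array 1 (2.34 to 2.52, adjusted p = 0.0598 to 0.0654). AT1G77640 lost it without heated QK array 1, QK 22 °C array 1, WT 22 °C array 1 or either heated WT array (1.89 to 2.53, adjusted p = 0.0801 to 0.148). AT1G69760 lost it without any QK or WT array except QK 22 °C array 1 (1.79 to 2.52, adjusted p = 0.0539 to 0.149). AT1G77640 also lost it without each hsfa2 or A2QK array, and under 15 of 22 alternatives in all. AT1G69760 lost it under 14 of 23, among them the fits without each A2QK or heated hsfa2 array. AT2G07719 lost it without any QK or WT array except heated QK array 2 and WT 22 °C array 2 (1.32 to 1.60).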

How the results depend on the processing

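Fits of fewer arrays moved the counts most. With the QK arrays alone 37 probe sets were raised and 5 lowered in QK, and among the lists 0 endoplasmic reticulum folding, 7 mitochondrion-encoded and 1 auxin gene were raised. With the WT and QK arrays alone 8 signed changes were higher and 81 lower in QK than in WT. In that fit 24 of the single-gene calls of a difference between QK and WT were lost and 10 were kept. Leaving out 1 array at a time gave 336 to 642 raised, 496 to 1152 lowered, 67 to 149 higher in QK than in WT (67 without heated WT array 2) and 188 to 239 lower. It gave 0 to 7 raised small heat shock proteins, 0 to 5 co-chaperones, 3 to 4 endoplasmic reticulum folding genes, 13 to 14 mitochondrion-encoded genes and 4 auxin genes in each fit. Where an array was left out, the lone one was assumed to vary like the other groups. With probe sets of a mean of at least 5 alone, 2 auxin genes were raised. Fits of fewer arrays have fewer degrees of freedom, and the filter removes dim probe sets. The same WT and QK arrays gave 78 higher and 201 lower when the replicate number was added as a block, which takes up a further degree of freedom. The causes were not tested.

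Array numbers were not treated as pairs. The difference between arrays 2 and 1 correlated at 0.535 to 0.795 among the QK and WT groups, but at -0.0221 to 0.0827 between the QK groups and those of hsfa2 and A2QK. With the replicate number as a block over all arrays 689 probe sets were raised and 1236 lowered in QK, 129 changes were higher and 260 lower than in WT, and 1 small heat shock protein (HSP17.4III) was raised. With the replicate block over the QK and WT arrays these counts were 602, 1198, 78 and 201, and 0. That block ended the QK calls of DER1, EXLA2, CYP71B5, HSA32, WRKY53 and psbB (adjusted p = 0.0526 to 0.0968) and the QK minus WT calls of DER1, AT2G07719, HSP15.7, XTH33, AT4G16660, HSP17.6B, HSP22 and AT1G77640 (adjusted p = 0.0509 to 0.155). NDB2 gained a QK call under both blocks (adjusted p = 0.021 and 0.00709), and EXPA18 and HSP17.4III under the block over all arrays (adjusted p = 0.0477 and 0.0437).

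With array medians set equal, 753 were raised and 811 lowered, and with quantile normalization 666 and 895. For 151 results on single genes the alternatives gave 3445 values: 3138 stayed on the same side of the threshold, 276 lost the call, 31 gained one and 0 calls were reversed. Among the 3138, 18 values with no call changed sign.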

Other observations

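Unlike HSP17.6C, whose 22 °C levels in QK were close together, some genes other than chaperones separated arrays 1 and 2 of QK at both temperatures. The genes below were picked after their values were seen. The flowering and clock gene GI stood at 7.32 and 5.70 in heated QK and at 7.92 and 5.33 in QK at 22 °C. COR27, a cold-responsive gene linked to the clock, stood at 8.26 and 3.07 in heated QK and at 8.17 and 2.66 in QK at 22 °C. CCL stood at 12.01 and 8.78 in heated QK and at 12.40 and 8.45 in QK at 22 °C. In these 3 genes array 2 was the lower one at both temperatures. HYH, a relative of the light-response factor HY5, stood at 3.24 and 6.51 in heated QK and at 3.38 and 6.22 in QK at 22 °C, so that array 2 was the higher one. On heated array 2 773 probe sets were at least 2-fold higher and 573 at least 2-fold lower than on heated array 1, and at 22 °C the counts were 879 and 734. The part of this difference between array numbers in the chaperone results was not tested.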
